A study of Mus musculus with 6 samples.

Results

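Polycomb repressive complex 1 (PRC1) genes were followed in satellite cells, stem cells of muscle, from adult and young mice. The 9 genes were Bmi1, Ring1, Rnf2, Cbx2, Cbx6, Cbx7, Cbx8, Phc1 and Phc2, all subunits of PRC1. They were found by taking every non-control probe whose gene name in the array files is exactly one of these symbols, which gave 12 of the 55681 probes on the array. Bmi1 had 2 probes, Cbx6 had 3 and each of the others had 1.

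PRC1 keeps genes silent by placing ubiquitin on histone H2A. Its catalytic core pairs a RING protein (RING1 or RNF2) with a PCGF protein, of which BMI1 is one. Canonical complexes add a CBX protein, whose chromodomain binds the trimethyl mark that Polycomb repressive complex 2 (PRC2) leaves on histone H3, and a PHC protein, which can polymerise and compact chromatin. The Cdkn2a locus, which encodes the cell cycle inhibitors p16Ink4a and p19Arf, is the best known target of BMI1 in stem cells. In muscle, loss of that repression is known from satellite cells of very old mice.

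The adult group held 3 samples of satellite cells from male C57BL/6 mice aged 6 months, and the young group 3 samples from male C57BL/6 mice aged 3, 2 and 3 months for replicates 1, 2 and 3. The labels name no transgene, allele or treatment in either group. In both groups the cells were sorted as positive for integrin alpha7 and CD34 and negative for CD31, CD45, CD11b and Sca1. The samples are labelled as biological replicates, and the labels give no number of mice for each, so p-values measure the spread between these samples. RNA was amplified by whole transcriptome amplification, labelled with Cy3 and hybridised to 1 single-colour array per sample.

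All 12 markers of satellite cells that were looked up were well above background on all 6 arrays. On the adult arrays 47554 to 49957 probes were well above background, against 41528 to 45926 on the young arrays. Of 32068 genes tested, 9134 differed between adult and young at a limma adjusted p under 0.05. That is 28.5% of genes, with 20.0% higher and 8.44% lower in adult. In 55.6% of genes the adult and young values did not overlap. Throughout, a level is the log2 signal of a probe relative to its array's 75th percentile, and a difference is adult minus young on that log2 scale. The median difference was 0.30 over all genes and -0.03 over the 17434 genes with a name, so the scaling sets where a difference of 0 lies.

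Of the PRC1 genes, Bmi1 alone passed the threshold, and it was 1.99-fold lower in adult satellite cells. Cbx8 was not well above background on any array, so 8 of the 9 genes entered the comparison. Among those 8, 1 was lower, 0 were higher and the other 7 stayed short of the threshold (2 were below an unadjusted p of 0.05, Bmi1 and Phc1, both with negative differences). Differences were negative for 6 and positive for 2, with a median of -0.44. The adult and young values did not overlap for 4 of the 8, a share below that of all genes. Against the 28.5% called over all genes, 1 of 8 is no result about PRC1 genes as a group. The core and PHC genes Bmi1, Ring1, Rnf2, Phc1 and Phc2 had negative differences under each of 7 scalings of the arrays. Cbx2, Cbx6 and Cbx7 changed sign with the scaling, though Cbx6 rose no higher than 0.0073. With median scaling Cbx6 was called lower (-0.85, limma adjusted p = 0.0455). A difference between roles was not tested. In sorted cells measured in bulk, fewer cells that carry a transcript and less of it per cell cannot be told apart.

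**Figure D1:**
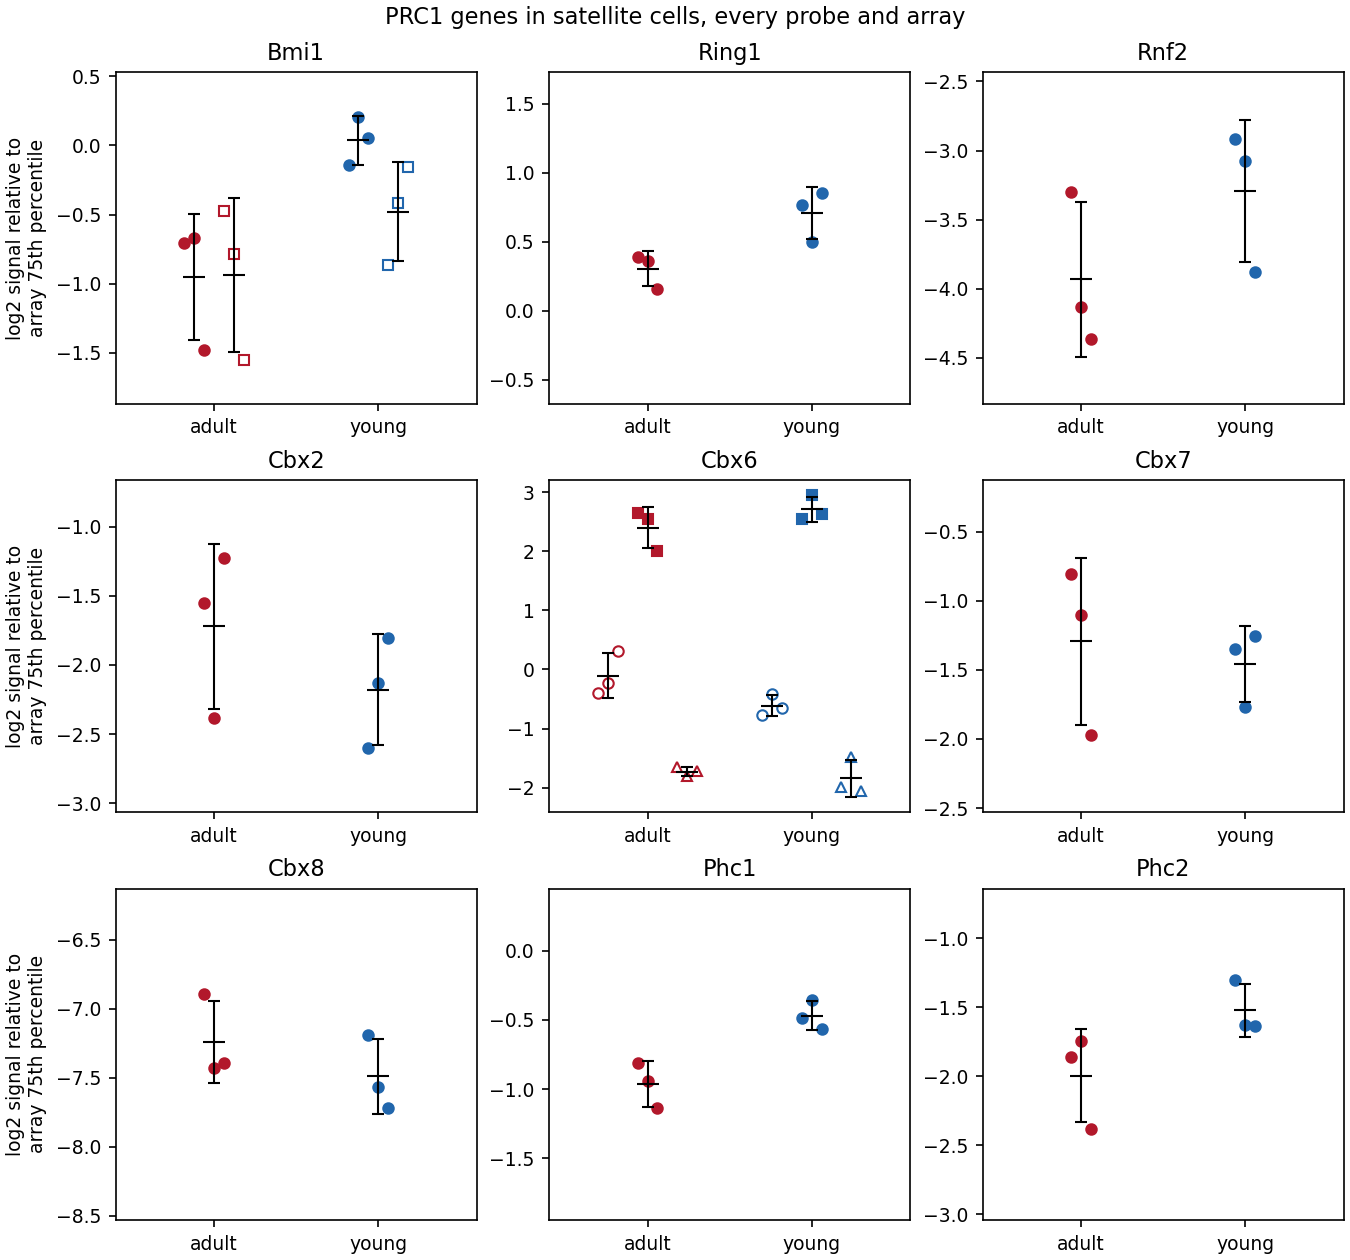
Levels of the 9 PRC1 genes on every array, as log2 signal relative to the array's 75th percentile, adult (red) left of young (blue). Points are single samples (n = 3 per group), marker shapes are different probes of 1 gene with the brightest probe filled, and bars are the mean and SD. Bmi1's brightest probe, Ring1, Phc1 and Phc2 show no overlap, with adult lower. The Cbx6 probe at 1444 shows none either, with adult higher, and Cbx8 lies between -7.72 and -6.90 on all 6 arrays.

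Because the result for Bmi1 and that for Cbx6 depended on the probe, the 5 probes of these genes are shown. Each line gives 30 of the 60 bases of a probe, all in lower case since no base was singled out, with the position in the transcript at which the probe starts. Bmi1 probes lie on mm9 chromosome 2, plus strand, and Cbx6 probes on mm9 chromosome 15, minus strand.
Bmi1 probe at 2868 (chr2:18607531-18607590): gctttgtcttgcttgtagccattaaatcat
Bmi1 probe at 3324 (chr2:18607987-18608046): tggtgaatttaactcatttttctagacttt
Cbx6 probe at 1444 (chr15:79658273-79658332): tcagacccgtatgcctgtgcttagcttgcc
Cbx6 probe at 3141 (chr15:79656576-79656635): ttttttgtaaagaagttgtgttttcagagg
Cbx6 probe at 5096 (chr15:79654621-79654680): ttttctctcacattttaaagatgaagtgtc
The Bmi1 probes start 456 bases apart in both the transcript and the genome, and the Cbx6 probes 1697 and 1955 bases apart in both. By the files' numbers, then, no intron lies between probes of the same gene. Which of them lie in an untranslated region was not annotated here. The probes differ in composition: G and C make up 35.0% of each Bmi1 probe, and 55.0%, 30% and 40.0% of the Cbx6 probes at 1444, 3141 and 5096.

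Bmi1 encodes the PCGF subunit of the canonical complex and is required for self-renewal of several adult stem cells. Its brighter probe, at 2868, stood at -0.71, -0.67 and -1.48 on adult arrays 1, 2 and 3, against -0.14, 0.21 and 0.05 on young arrays 1, 2 and 3. Every adult value was below every young one, and adult array 3 was the lowest of the 6. The means were -0.95 ± 0.46 in adult and 0.04 ± 0.18 in young (SD, n = 3 each), a difference of -0.99 ± 0.28 (SE, 95% interval -1.67 to -0.31, limma adjusted p = 0.0458). Only 4.6% of all genes had a lower difference.

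The other Bmi1 probe, at 3324, stood at -0.47, -0.79 and -1.55 on adult arrays 1, 2 and 3, against -0.86, -0.42 and -0.15 on young arrays 1, 2 and 3. Here the groups overlapped: young array 1 was below adult arrays 1 and 2. The difference was -0.46 ± 0.35 (SE), with a limma adjusted p of 0.337 in the fit over all 48378 probes. In that same fit, where 23.4% of probes passed, the brighter probe had an adjusted p of 0.0516. Both probes therefore had negative differences, and the call rested on the choice of the brighter one. Bmi1 kept its call under 5 of 20 other settings, and under none of the 6 fits with 1 array left out, each of which has fewer samples (adjusted p = 0.0775 to 0.105, differences -1.13 to -0.73).

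Ring1 and Rnf2 encode the RING subunits that carry the ubiquitin ligase activity. Ring1, whose probe lies at chr17:34158164-34158223 (mm9, minus strand), stood at 0.39, 0.36 and 0.16 on adult arrays 1, 2 and 3, against 0.77, 0.50 and 0.85 on young arrays 1, 2 and 3. All 3 adult values were below all 3 young values, with a gap from 0.39 to 0.50. The means were 0.31 ± 0.13 in adult and 0.71 ± 0.19 in young (SD, n = 3 each), so the difference of -0.40 ± 0.19 (SE, 1.32-fold, 95% interval -0.87 to 0.06) did not pass (limma adjusted p = 0.142).

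Rnf2, the main ligase of embryonic stem cells, stood at -3.30, -4.13 and -4.36 on adult arrays 1, 2 and 3, against -2.92, -3.08 and -3.88 on young arrays 1, 2 and 3. Young array 3 fell among the adult values, so the groups overlapped. The difference was -0.64 ± 0.39 (SE, 95% interval -1.59 to 0.31, limma adjusted p = 0.229). Its probe (chr1:153316987-153317046, mm9, minus strand) was dim, with processed signals of 25.8 to 54.6 on adult arrays and 52.0 to 78.7 on young arrays. The size depended on the scaling: the difference was -1.76 with quantile normalization (adjusted p = 0.0416), -1.69 with cyclic loess (adjusted p = 0.0415) and -0.50 with the 75th percentile of probes above background on all arrays (adjusted p = 0.336).

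The CBX genes encode the readers of the trimethyl mark, and none of the 3 measured passed the threshold. Cbx2 (chr11:118892363-118892422, mm9, plus strand) stood at -1.55, -2.38 and -1.23 on adult arrays 1, 2 and 3, against -2.60, -2.13 and -1.81 on young arrays 1, 2 and 3. Adult array 2 lay among the young values, and the other 2 adult arrays above them. The difference was 0.46 ± 0.37 (SE, 95% interval -0.45 to 1.37, limma adjusted p = 0.350).

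Cbx7, known as a partner of BMI1 in repressing the Cdkn2a locus, stood at -0.81, -1.10 and -1.97 on adult arrays 1, 2 and 3, against -1.35, -1.77 and -1.25 on young arrays 1, 2 and 3. The adult arrays held both the highest and the lowest value. The difference was 0.16 ± 0.35 (SE, 95% interval -0.69 to 1.02, limma adjusted p = 0.718), and it turned to -0.08 without adult replicate 1. The Cbx7 probe (chr15:79746240-79746299, mm9, minus strand) is 20% G and C.

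Cbx6 encodes a CBX protein less studied than the others, and its 3 probes did not move alike. The brightest, at 3141, stood at 2.65, 2.54 and 2.01 on adult arrays 1, 2 and 3, against 2.55, 2.94 and 2.63 on young arrays 1, 2 and 3. Adult array 3 was the lowest and the other values overlapped, for a difference of -0.31 ± 0.25 (SE, 95% interval -0.90 to 0.29, limma adjusted p = 0.347). The probe at 1444 stood at -0.41, -0.23 and 0.32 on adult arrays 1, 2 and 3, against -0.78, -0.42 and -0.65 on young arrays 1, 2 and 3.

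At 1444, then, every adult value was above every young one, narrowly for adult array 1, and adult array 3, lowest at 3141, was the highest. The difference there was 0.51 ± 0.26 (SE, adjusted p = 0.170 in the probe fit). The probe at 5096 differed by 0.11 (unadjusted p = 0.632), with levels of -1.81 to -1.66 in adult and -2.06 to -1.48 in young. The sign for Cbx6 thus depended on the probe, and no probe passed.

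Cbx8 encodes another CBX reader and lies next to Cbx2, with 0 protein-coding genes between them in the RefSeq gene table. Its probe (chr11:118899777-118899836, mm9, minus strand, 18.3% G and C) was not well above background on any of the 3 adult or 3 young arrays. The processed signals were 4.52, 3.61 and 3.16 on adult arrays 1, 2 and 3, against 3.79, 3.51 and 3.63 on young arrays 1, 2 and 3. No fold is given for it, since it was not well above background in either group.

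Phc1 and Phc2 encode the polyhomeotic subunits, and both had negative differences that did not pass. Phc1 (chr6:122268043-122268102, mm9, minus strand) stood at -0.81, -0.94 and -1.14 on adult arrays 1, 2 and 3, against -0.48, -0.36 and -0.57 on young arrays 1, 2 and 3. The groups did not overlap, and of the 8 genes Phc1 had the smallest spread in young samples. The means were -0.96 ± 0.17 in adult and -0.47 ± 0.11 in young (SD, n = 3 each). The difference of -0.49 ± 0.18 (SE, 1.41-fold, 95% interval -0.94 to -0.04) did not pass (limma unadjusted p = 0.0361, adjusted p = 0.0848).

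Phc2 (chr4:128430039-128430098, mm9, plus strand) stood at -1.86, -1.75 and -2.38 on adult arrays 1, 2 and 3, against -1.30, -1.63 and -1.64 on young arrays 1, 2 and 3. The groups did not overlap, though adult array 2 and young array 3 lay close together. The difference was -0.47 ± 0.24 (SE, 1.39-fold, 95% interval -1.06 to 0.11, limma adjusted p = 0.165).

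**Figure D2:**
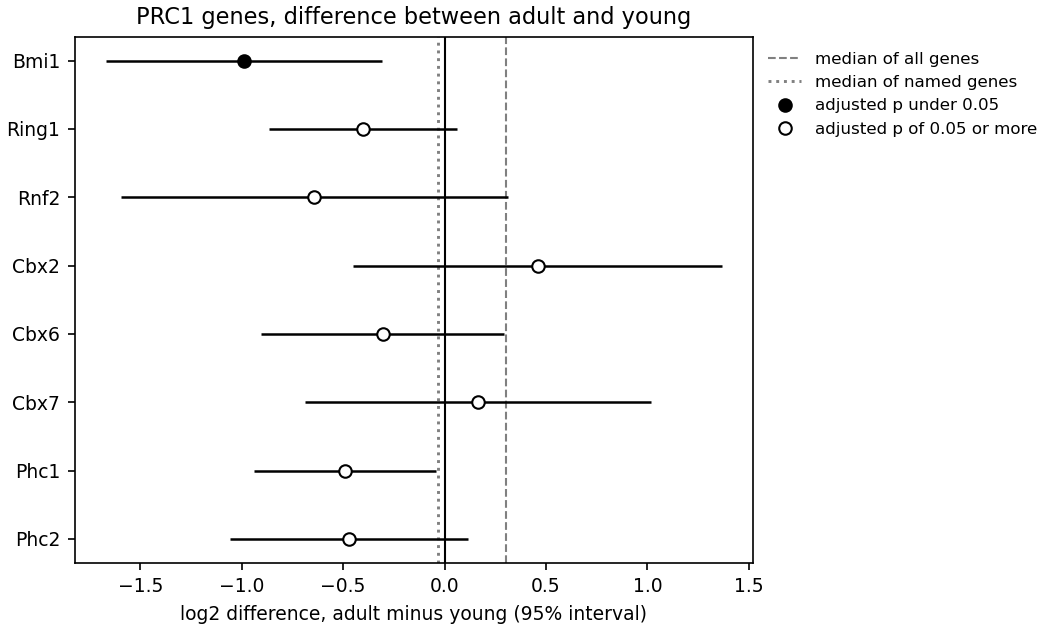
Difference in log2 level, adult minus young, for the 8 measured PRC1 genes, with 95% intervals from limma (n = 3 per group) and the medians of all genes (0.30) and of named genes (-0.03) as lines. Bmi1 (filled) passed the threshold, and the intervals of Bmi1 and Phc1 leave out 0 while the other 6 hold it.

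The scaling moved the median of all genes as well as the PRC1 genes, so each difference was also taken relative to that median. Scaling to the 75th percentile, to the median or to the percentile of probes above background on all arrays subtracts a constant per array. Those relative values are therefore the same by construction. Normexp and the series matrix values were at most 0.0312 apart, so the 7 scalings are not independent. Over the 7 scalings Bmi1 lay between -1.3 and -0.98 relative to the median of all genes. Rnf2 lay between -1.72 and -0.71, Phc2 between -0.90 and -0.61, Phc1 between -0.80 and -0.56 and Ring1 between -0.71 and -0.22. Cbx2 lay between 0.02 and 0.16, Cbx7 between -0.14 and -0.06 and Cbx6 between -0.61 and 0.02. The core and PHC genes were thus below the median of all genes under each scaling, and Cbx2 and Cbx7 within 0.16 of it. The range of Cbx6 overlapped that of Ring1. Other baselines lay lower with the 75th percentile, where the median of all genes was 0.30. It was 0.14 over genes within the PRC1 genes' range of mean level, and -0.03 over named genes. Against these the core and PHC genes stood less far below, and Cbx2 (0.46) further above. Cbx7 (0.16), which was below the median of all genes, was above both of these baselines. Which genes passed changed: Rnf2 alone with quantile normalization and with cyclic loess, Bmi1, Ring1, Cbx6, Phc1 and Phc2 with median scaling, and Bmi1, Rnf2, Phc1 and Phc2 with normexp background correction and with the series matrix values. Median scaling also called 8809 of all 32068 genes lower, and normexp 4088. With the 75th percentile taken over probes above background on all arrays, 0 passed by limma (1 at an unadjusted p under 0.05).

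**Figure D3:**
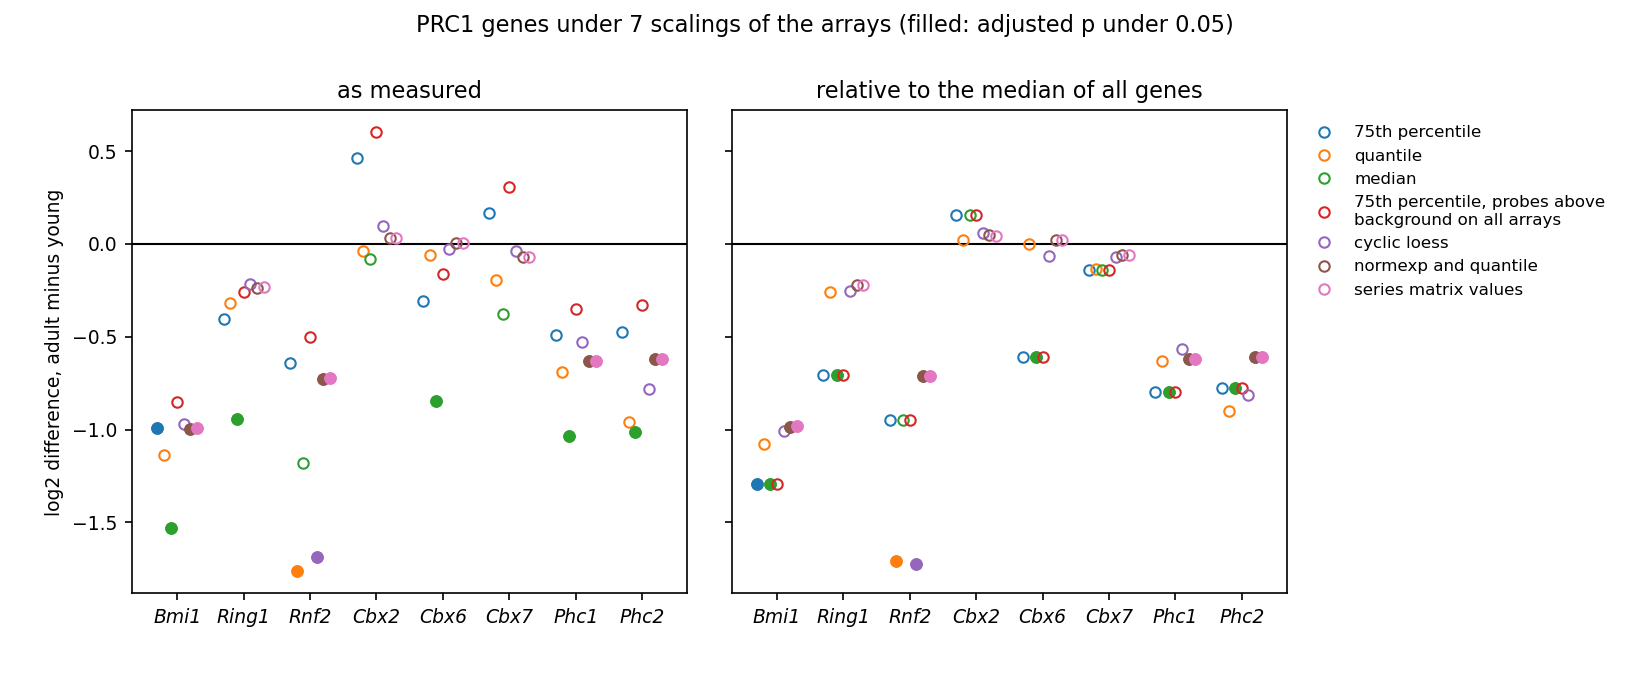
Difference in log2 level (adult minus young) of the 8 measured PRC1 genes under 7 scalings of the arrays, as measured (left) and relative to the median of all genes (right). Filled points passed an adjusted p of 0.05. Bmi1, Ring1, Rnf2, Phc1 and Phc2 lie below 0 in both panels, and Cbx2 and Cbx7 lie near the median of all genes.

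The promoters of Bmi1, Ring1 and Phc1, the 3 genes with the smallest p, are shown for their sequence features. Each runs from 250 bases before to 50 after the start in RefSeq (GRCm38.p6), 5′ to 3′ on the gene's strand. Capitals mark matches, on either strand, to the E-box CACGTG, the E2F motif TTCCCGC, the YY1 motif GCCATNTT or the cyclic AMP response element core TGACGT. These motifs were picked with the sequences in view and do not overlap each other in these promoters.
Bmi1 (chr2:18676768-18677067, plus strand): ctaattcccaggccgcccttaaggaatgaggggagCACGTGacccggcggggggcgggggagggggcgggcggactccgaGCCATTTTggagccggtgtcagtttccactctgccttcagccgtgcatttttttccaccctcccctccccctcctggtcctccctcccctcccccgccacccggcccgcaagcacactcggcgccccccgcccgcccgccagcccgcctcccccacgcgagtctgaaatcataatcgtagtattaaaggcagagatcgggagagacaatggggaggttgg
Ring1 (chr17:34024631-34024930, minus strand): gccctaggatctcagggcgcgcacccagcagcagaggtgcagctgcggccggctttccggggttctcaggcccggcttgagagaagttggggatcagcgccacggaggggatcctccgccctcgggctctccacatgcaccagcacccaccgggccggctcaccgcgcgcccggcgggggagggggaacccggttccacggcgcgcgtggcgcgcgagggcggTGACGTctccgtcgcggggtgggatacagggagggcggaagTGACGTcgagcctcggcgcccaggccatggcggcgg
Phc1 (chr6:122340178-122340477, minus strand): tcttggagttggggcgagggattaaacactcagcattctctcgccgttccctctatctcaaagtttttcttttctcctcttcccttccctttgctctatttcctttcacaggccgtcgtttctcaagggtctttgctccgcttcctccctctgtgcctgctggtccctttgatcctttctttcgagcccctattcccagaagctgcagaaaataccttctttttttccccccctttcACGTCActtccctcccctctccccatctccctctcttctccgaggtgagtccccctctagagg
Bmi1 held 1 E-box and 1 YY1 match, Ring1 2 matches to the response element core, and Phc1 1. Of 32851 promoters of the same length, 7.15% hold the E-box, 4.6% the E2F motif, 6.05% the YY1 motif and 7.51% the response element core. A match of letters is a description of the window and no evidence of binding. The promoters of Bmi1, Ring1 and Phc1 hold 23, 37 and 9 CpG dinucleotides, against a median of 7 over all promoters. Among the 10 RefSeq promoters of 8 of the PRC1 genes the count was 2 to 45, with both ends of that range at alternative starts of Phc2.

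By the correlation of levels over the 6 arrays, the named genes most like Bmi1 were Rap1a (r = 0.9996), Rab12 (r = 0.9989) and Rbck1 (r = 0.9987). Those most like Phc1 were G2e3 (r = 0.9973), Mink1 (r = 0.9966) and Rab3a (r = 0.996), and those most like Ring1 were Pde6d (r = 0.9978), Lpar6 (r = 0.9968) and Pusl1 (r = 0.9966). The 6 arrays hold both groups, so a gene that differs between adult and young in the same way scores high, and these values carry no test.

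Of 3 other canonical subunits reported here, 0 were called by limma (0 without adjustment), and their median was -0.30. Pcgf2, which can take BMI1's place in the complex, differed by -0.08 ± 0.27 (SE). Phc3 differed by -0.36 ± 0.40 and Scmh1, which binds PHC proteins, by -0.30 ± 0.21 (SE each). Of these Scmh1 did pass, lower in adult, with quantile normalization (-0.83, adjusted p = 0.046), median scaling (-0.84, adjusted p = 0.0292), normexp (-0.59, adjusted p = 0.0333) and the series matrix values (-0.59, adjusted p = 0.0327). So the paralog of Bmi1 had no detectable difference (95% interval -0.73 to 0.58), where Bmi1 was lower, although the difference between these genes was not tested.

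Variant PRC1 complexes lack CBX and PHC proteins and use RYBP or YAF2 with other PCGF subunits. Of 17 genes of these complexes 0 were higher, 2 were lower and 15 did not pass, with a median of -0.53 and 15 negative differences, beside 20.0% higher and 8.44% lower over all genes. The number lower depended on the scaling: it was 10 with median scaling, 4 with cyclic loess and 5 each with quantile normalization, normexp and the series matrix values, with 0 higher under each. The number lower among all 32068 genes moved too. It was 8809 with median scaling, 2146 with cyclic loess, 2750 with quantile normalization, 4088 with normexp and 4089 with the series matrix values. Skp1, an adaptor of cullin ligases that joins the KDM2B-containing complex, stood at 0.56 ± 0.13 in adult and 1.64 ± 0.22 in young (SD, n = 3 each), 2.11-fold lower in adult (limma adjusted p = 0.0243). L3mbtl2, a methyl-lysine binding protein of the PCGF6 complex, stood at -2.42 ± 0.01 in adult and -1.45 ± 0.33 in young (SD, n = 3 each), 1.95-fold lower (limma adjusted p = 0.0314). Both passed under each of the 7 scalings. Yaf2 (-0.76, adjusted p = 0.0515) and Pcgf1 (-0.53, adjusted p = 0.0588) did not pass. The median of this list was negative under each of the 7 scalings, from -1.07 to -0.38, or -0.83 to -0.47 relative to all genes.

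PRC2 writes the mark that CBX proteins read. Of its 11 genes 1 rose, 1 fell and the other 9 did not pass, with a median of -0.37. That balance depended on the scaling. With median scaling 7 were lower, with normexp and with the series matrix values 3, and with quantile normalization and cyclic loess 1, and under these 5 scalings 0 were higher. Among all 32068 genes, 8809 were lower with median scaling, 4088 with normexp and 2750 with quantile normalization. Rbbp4, a histone chaperone found in PRC2 and other complexes, was 2.05-fold lower in adult by its brighter probe (2.54 ± 0.40 in adult and 3.58 ± 0.20 in young, SD, n = 3 each, limma adjusted p = 0.0372). Its other probe differed by -0.16 (unadjusted p = 0.661), and the call held under 5 of the 7 scalings. Phf19, a PRC2 accessory protein that binds methylated histone H3, was higher in adult by 1.80 ± 0.52 (SE, limma adjusted p = 0.0484). It stood at -2.89, -2.65 and -2.75 on adult arrays 1, 2 and 3, against -4.75, -3.43 and -5.52 on young arrays 1, 2 and 3, and it was well above background on 2 of the 3 young arrays. Its call held under 2 of the 7 scalings, with differences of 0.23 to 1.95. By their brighter probes Rbbp7 (-0.67, adjusted p = 0.0539) and Aebp2 (-0.56, adjusted p = 0.0635) did not pass. In the limma probe fit the other Rbbp7 probe did pass, with a difference of -0.91 (adjusted p = 0.0315). The other Aebp2 probe did not (-0.39, adjusted p = 0.292).

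Enzymes that remove the Polycomb marks did not pass either, except under median scaling. Of 6 genes of H2A deubiquitination 0 passed by limma (2 without adjustment), and their median was -0.32: Asxl1 differed by -0.71 (adjusted p = 0.0526), Usp21 by -0.49, Usp16 by -0.36 and Asxl2 by -0.28. With median scaling, where 8809 of all 32068 genes were lower, 4 of these 6 were lower. Under the other 5 scalings 0 were. The demethylases of the histone H3 mark, Kdm6b and Kdm6a, differed by -0.40 and 0.08, and 0 of 2 passed (0 at an unadjusted p under 0.05). Kdm6b and Kdm6a were not examined under the other scalings.

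**Figure D4:**
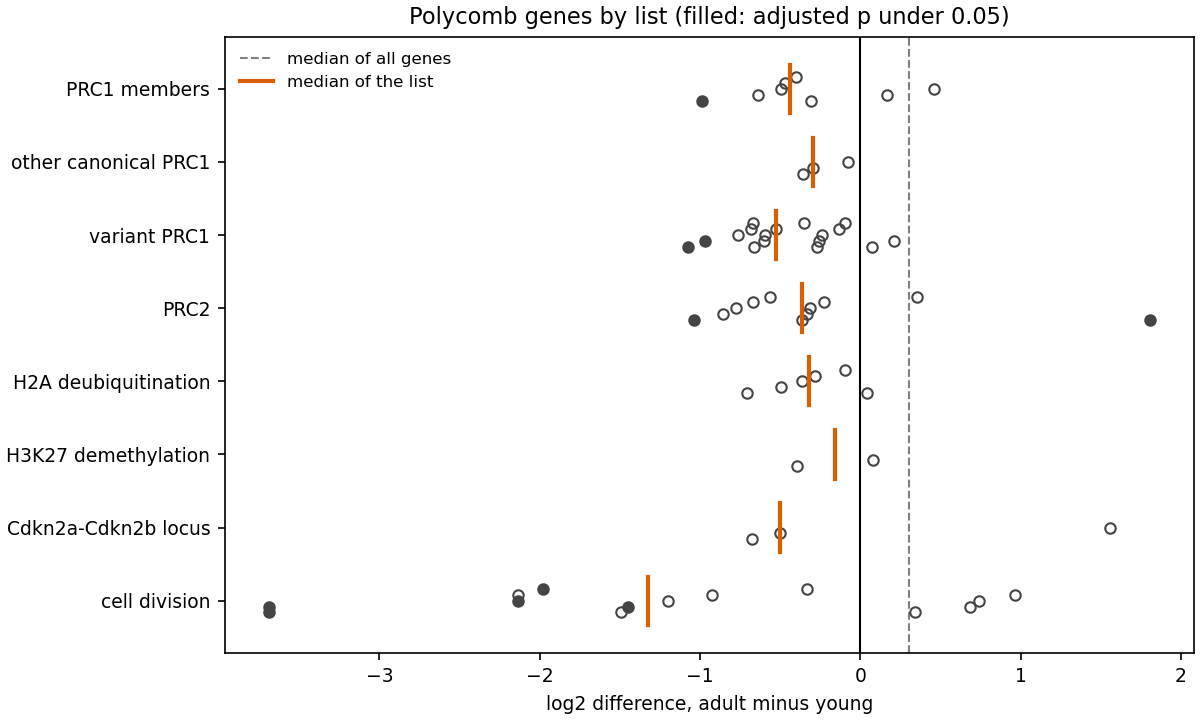
Difference in log2 level (adult minus young) of each measured gene in the PRC1 set and 7 related lists, 1 point per gene, filled where the adjusted p was under 0.05. The orange bars (list medians) of the PRC1 set, variant PRC1 and PRC2 lie at -0.44, -0.53 and -0.37, left of the dashed median of all genes at 0.30.

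Cdkn2a, the locus that BMI1 and CBX7 are known to repress, did not pass. Its probe (chr4:88920405-88920464, mm9, minus strand) stood at -2.13, -2.17 and -1.18 on adult arrays 1, 2 and 3, against -2.26, -2.58 and -5.31 on young arrays 1, 2 and 3. The adult values were all above the young ones, but 2 of them by little, and young array 3 stood far below the other 5. The difference was 1.56 ± 0.84 (SE, 95% interval -0.50 to 3.62, limma adjusted p = 0.186), and it came to 0.60 without young replicate 3 (adjusted p = 0.290). A second Cdkn2a probe was not well above background on any array. Which of the transcripts for p16Ink4a and p19Arf each probe reads was not annotated here.

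Cdkn2b, the neighbouring gene for the inhibitor p15Ink4b, stood at -1.97, -2.54 and -2.08 on adult arrays 1, 2 and 3, against -0.89, -1.84 and -2.36 on young arrays 1, 2 and 3. The groups overlapped, and the difference was -0.50 ± 0.41 (SE, limma adjusted p = 0.353). The Cdkn2a difference was positive in each of the 20 other settings, from 0.44 to 2.12, and passed in 0 of them. These settings reuse the same arrays and the same Cdkn2a probe, so the shared sign adds no support. A link between Cdkn2a and Bmi1 was not tested.

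Some markers of cell division and of other cell types also differed between adult and young. Over all genes 28.5% were called, 20.0% higher and 8.44% lower in adult. A count of markers near these shares is no result about a cell type. Of 14 measured genes of cell division 0 were higher, 5 were lower and 9 did not pass: Kif23 (-3.69), Mki67 (-3.69 by its brighter probe and 0.07 by the other), Mcm2 (-1.98) and Birc5 (-2.14) led. Among the 9, Cdk1, the mitotic kinase, differed by 0.68 by its brightest probe. Its other 2 probes were lower in adult, by -3.62 (adjusted p = 0.025) and -3.06 (adjusted p = 0.0412) in the probe fit. With normexp and with the series matrix values 8 of the 14 were lower, and with quantile normalization, median scaling and cyclic loess 6. Among all 32068 genes, 4088 were lower with normexp and 8809 with median scaling. The summed level of the 14, as a multiple of the array's 75th percentile, was 3.91 to 4 on adult arrays and 7.84 to 16.5 on young arrays. Top2a was not well above background on any adult array.

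Of 10 myofibre markers 1 was higher and 4 were lower, with sums of 18.9 to 24.2 on adult arrays and 35.5 to 51.7 on young arrays. Of 12 satellite cell markers 0 were higher and 4 were lower (2 to 7 lower under the 7 scalings). Their sums were 124 to 164 on adult arrays and 164 to 184 on young arrays. Mural cells wrap blood vessels, and of 8 of their markers 4 were higher and 1 was lower, under each of the 7 scalings, and their median difference was 1.24. Kcnj8 was 12-fold, Abcc9 5.17-fold, Pdgfrb 4.38-fold and Rgs5 3.65-fold higher in adult, and Acta2 was 4.3-fold lower. The sums of the 8 markers were 68.1 to 73.6 on adult arrays and 62.1 to 80.1 on young arrays. Notch3 alone made up 65.2% to 77.3% of them. Without Notch3 the sums still overlapped, at 15.9 to 23.7 on adult arrays and 15.5 to 21.1 on young arrays.

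All 10 leukocyte markers had positive differences. Of these 3 were higher and 0 lower (1 to 3 higher under the 7 scalings), beside 20.0% higher and 8.44% lower over all genes. Tyrobp was at least 31.2-fold higher in adult and not well above background on any young array. Adgre1 was 4.98-fold and Cd79a 3.12-fold higher by their brighter probes. The other probes of Adgre1 (2.10, adjusted p = 0.101) and Cd79a (0.65, adjusted p = 0.0907) did not pass in the limma probe fit. The sums of the 10 leukocyte markers were 379 to 403 on adult arrays and 220 to 426 on young arrays, of which Itgam made up 95.7% to 97.6%. That rests on its brightest probe, with means of 8.57 in adult and 8.18 in young. Its other probes stood at -0.15 and -0.26 in adult, each 1.46 higher than in young (limma adjusted p = 0.0361 and 0.0705 in the probe fit). Dimmer probes of Csf1r were higher by 1.35 (adjusted p = 0.0278) and 0.38 (adjusted p = 0.570). Without Itgam the sums were 12.8 to 13.7 on adult arrays and 8.12 to 10.2 on young arrays. The median of the list was 0.52 here and -0.03 with median scaling. Of 8 endothelial markers 1 was higher and 0 were lower, with sums of 17.9 to 24.8 on adult and 18 to 28 on young arrays. Of 6 fibro-adipogenic markers 1 was higher and 1 was lower, with sums of 5.22 to 10.7 on adult and 10.5 to 19.2 on young arrays. Dcn made up 55.8% to 83.8% of these sums. Without Dcn they were 1.85 to 2.47 on adult and 1.71 to 8.47 on young arrays. Pdgfra, also looked up, was not well above background on any array. The part of these shifts in the values of the PRC1 genes was not tested.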

How the data were processed

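Satellite cell RNA of 3 adult and 3 young samples was hybridised to 1 Agilent array each, all on 1 slide. Per the file headers, the deposited intensity values came from Feature Extraction 10.7.3.1, as background-subtracted, detrended signals, mean signals and local background, with no scaling between arrays. The sources used here do not give how the authors made the log2 values of the deposited series matrix. Their median was 7.56 in each column, and they differed by at most 0.0312 from normexp (offset 50) and quantile normalization of the mean and background signals.

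Control spots (3671 of 62976) and outlier spots were left out, 0 spots were saturated, and spots of 1 probe were averaged. Processed signals were put on a log2 scale, the 75th percentile of each array was subtracted, and the values were fitted with limma 3.58.1 in R 4.3.3 (lmFit, eBayes; R package data.table, version 1.17.8), taking the brightest probe of each gene among those well above background on 3 or more arrays. P-values were adjusted over all genes by Benjamini-Hochberg, with 0.05 as the threshold. Fits over all probes used the same test, and the code was checked on simulated arrays. Genes were named through RefSeq accessions (26300 probes), symbols (2044), older symbols (355) or the files (26982). Probe coordinates are mm9, from the files. The number of arrays limits the precision.

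The PRC1 genes and all lists were chosen with earlier results of these data known. Named are all 9 PRC1 genes, every measured other canonical subunit except 1 that is not reported here, Cdkn2a and Cdkn2b, up to 4 genes of smallest p per other Polycomb list and of cell division, and the 3 genes most like each of the 3 PRC1 genes of smallest p. Top2a, Cdk1 and the genes of cell type markers were named after their values were seen. Replicate numbers shared by adult and young samples did not pair them.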

Additional observations from a re-analysis of the deposited data

How the results depend on the processing

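Of 20 alternatives, 6 left out an array, and the dimmest probe of each gene was chosen after seeing the data. By limma, 5 PRC1 genes passed with median scaling and 4 each with normexp and the series matrix values. With 0 passing, 2 were below an unadjusted p of 0.05 with no filter on dim probes and with array weights, and 1 with the 75th percentile of probes above background on all arrays, the mean of all probes, the row block, the replicate block and the dimmest probe. Leaving out 1 array gave 0 each time (1 to 3 unadjusted). Over all genes, 9134 passed (6426 higher, 2708 lower), but 5617 with quantile normalization (2867 higher, 2750 lower), 5274 with cyclic loess (3128, 2146), 5954 with the row block and 297 to 7680 with 1 array left out (297 without adult replicate 3, 483 without adult replicate 1, 770 without adult replicate 2, 1358 without young replicate 1, 2378 without young replicate 3). The split was 3445 higher and 8809 lower with median scaling, 7887 and 1784 with the percentile of probes above background everywhere, 4428 and 4088 with normexp, and 4422 and 4089 with the series matrix values.

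The median of all genes was 0.30, and -0.06 with quantile normalization, -0.24 with median scaling, 0.45 with the percentile of probes above background everywhere, 0.04 with cyclic loess and -0.01 with normexp and the series matrix values. Bmi1, Ring1, Rnf2, Phc1, Phc2 and Cdkn2a kept their sign in all 20. Bmi1 kept its call with median scaling, normexp, the series matrix values, probes above background on all 6 arrays and trend with robust moderation, and lost it elsewhere (adjusted p 0.0157 to 0.345 over the 20). Cbx2 turned to -0.0402 with quantile normalization and -0.0803 with median scaling. Cbx7 turned to -0.192, -0.376, -0.0356, -0.0705 and -0.0717 with quantile normalization, median scaling, cyclic loess, normexp and the series matrix values, and ran from -0.0772 to 0.503 with 1 array left out. Cbx6 turned to 0.0073 with normexp and with the series matrix values, 0.11 with the mean of its probes and 0.11 with the dimmest probe. Apart from the fewer samples and the probe choice, the cause was not tested. Same-numbered samples deviated with correlations of -0.002, -0.09 and -0.14, and the replicate block gave 0 calls by limma, over all genes (12724 unadjusted) and over PRC1 genes (Bmi1 adjusted p = 0.0926). Signal over background limits Rnf2 and Cbx8.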
